A study of Mus musculus with 9 samples.

Results

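The genes of the mitochondrial ribosomal proteins are described here in the left ventricle of mice with and without a cardiac deletion of *Vdac2*, the gene of a voltage-dependent anion channel of the outer mitochondrial membrane. They were taken as every gene whose symbol is Mrpl or Mrps followed by a number and at most 1 letter, with pseudogenes left out, and 78 of the 52636 genes in the count table met this rule. Of these, 51 encode proteins of the large subunit and 26 encode proteins of the small subunit, while *Mrps36* encodes a protein now placed in the 2-oxoglutarate dehydrogenase complex. By the current nomenclature *Mrps18a* and *Mrps30* belong to the large subunit despite their symbols. Proteins with a bacterial counterpart numbered 46, and 31 are specific to mitochondria.

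Bulk RNA was sequenced from the left ventricle of 16-week-old C57BL6J mice. Libraries 1 to 5 are labelled WT, a name that in the study stands for littermates with either the floxed *Vdac2* allele or the Cre transgene alone. Libraries 6 to 9 are labelled KO, which stands for mice with both alleles of *Vdac2* floxed and the Cre, although the measured *Vdac2* below goes against several of these labels. The αMHC promoter drives this Cre, so that the deletion is confined by design to cardiac myocytes, while the other cells of the ventricle keep the gene. Mice of both sexes were used in the study, and the labels do not give the sex of a sample.

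The mitochondrial ribosome translates the few proteins that the mitochondrial genome encodes, all of them subunits of the oxidative phosphorylation complexes. Its ribosomal RNA comes from the mitochondrial genome, but its proteins are encoded in the nucleus, made in the cytosol and imported, and many of them have no counterpart in bacteria. In the heart, where mitochondria fill much of the myocyte, inherited defects of several of these proteins, MRPL3 and MRPL44 among them, cause cardiomyopathy in humans.

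The level of *Vdac2* goes against the label in several libraries. Labelled WT, libraries 1 to 5 held it at 20.2, 366, 58.5, 365 and 21.3 CPM (the count scaled to a common library size by TMM). Libraries 6 to 9, labelled KO, held 384, 20.5, 421 and 19.1 CPM of it. The libraries are therefore called labelled WT and labelled KO throughout, and only these labelled groups were tested. A second view set libraries 1, 5, 7 and 9 (*Vdac2* under 100 CPM, here Vdac2-low) beside libraries 2, 4, 6 and 8 (*Vdac2* over 300 CPM, here Vdac2-high). These sets were chosen by a measured value of the same libraries, so they are described without a test or an error and no genotype is drawn from them. Library 3 is shown apart, at 58.5 CPM, between the highest Vdac2-low library at 21.3 CPM and the lowest Vdac2-high library at 365 CPM.

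Between 27345052 and 44673988 reads were counted per library, and 3 counts, the smallest level read as present, corresponded to 0.0693 to 0.114 CPM, which covers counting error only. By the labels all libraries labelled WT were read in lane 1 and all labelled KO in lane 2, and the effects of lane and label cannot be told apart. Library 3 stood apart in its cell type markers. The summed level of 8 ventricular myocyte markers was 14390 CPM in it and 52030 to 71700 CPM in the others, with all 8 below every other library, and 5 leukocyte markers summed to 1311 CPM against 212 to 498 CPM, with all 5 above. The 6 fibroblast markers summed to 3955 CPM against 881 to 1348 CPM, mostly through *Postn* at 2508 and *Col1a1* at 691 CPM. These and *Pdgfra* and *Tcf21*, 4 of the 6, were above every other library, while *Dcn* at 454 CPM was below and *Lum* at 144 CPM lay inside their range. Endothelial markers summed to 323 CPM against 427 to 636 CPM, with 3 of 4 below every other library. Of all tested genes 37.4% were below every other library in library 3 and 37.7% above. Of the atrial list only *Nppa*, which failing ventricles also express, was at a level to speak of, with 3347 CPM against 72.8 to 1523 CPM, and *Sln*, *Myl7* and *Myl4* were at 0 to 2.99 CPM in each library. The labelled tissue was otherwise met, with ventricular markers the highest list in every library, adipocyte markers at 0 to 0.448 CPM and the skeletal muscle myosins *Myh1* and *Myh4* at 0.504 CPM or less. *Ckm*, the third gene of the skeletal muscle list, which heart muscle also expresses, was at 348 to 2346 CPM. In bulk tissue, fewer cells of a type and less RNA per cell cannot be told apart.

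Of the 78 members, 77 passed the expression filter and were tested. *Mrpl53* had 0 or 1 count in each library and was not tested, and 88.0% of its exon length lies under *Gm42688* on the same strand. The members together took 0.282 to 0.344% of the counts of a library. At the median over libraries 3 members were over 100 CPM, 19 between 50 and 100 CPM, 52 between 10 and 50 CPM and 4 under 10 CPM.

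Levels per kilobase of exon spread widely, although these proteins are built into 1 particle. *Mrps23*, a mitochondria-specific protein of the small subunit, had the highest median at 77.7 CPM per kb. *Mrpl34* and *Mrpl55*, large subunit proteins with bacterial counterparts (bL34m and bL31m), followed at 70.6 and 51.9 CPM per kb. At the other end, *Mrps10* (uS10m) had 1.36 CPM per kb over an annotated exon length of 8079 bases, and *Mrpl23* (uL23m, a protein at the exit of the peptide tunnel) 0.370 CPM per kb. These low levels per kb rest on all annotated exons of a gene, whether or not they were transcribed here. *Mrpl23* shares 11.8% of its 50-base stretches with the processed pseudogene *Mrpl23-ps1*, and how the deposited counts treat such reads is not given in the sources used here.

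Shared sequence touched other members as well. Any 50-base stretch, the read length, that also lies in another gene was found in 53 of the 78 members, and 21 shared over 10% of their stretches. *Mrps34*, needed for the stability of the small subunit, shared 71.8%, mostly with the opposite-strand gene *Mapk8ip3*, and *Mrps25* shared 68.2%, mostly with *Nr2c2* on the opposite strand. Of the exon length of *Mrps34*, 37.0% also lies under a gene on the same strand. Over 10% of the exon length lay under a gene on the same strand in 5 members and under one on the opposite strand in 14. The levels of these members are uncertain to that extent. The strand setting of the counting is not given in the sources used here, and stranded counting would not resolve the overlaps on the same strand.

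**Figure D1:**
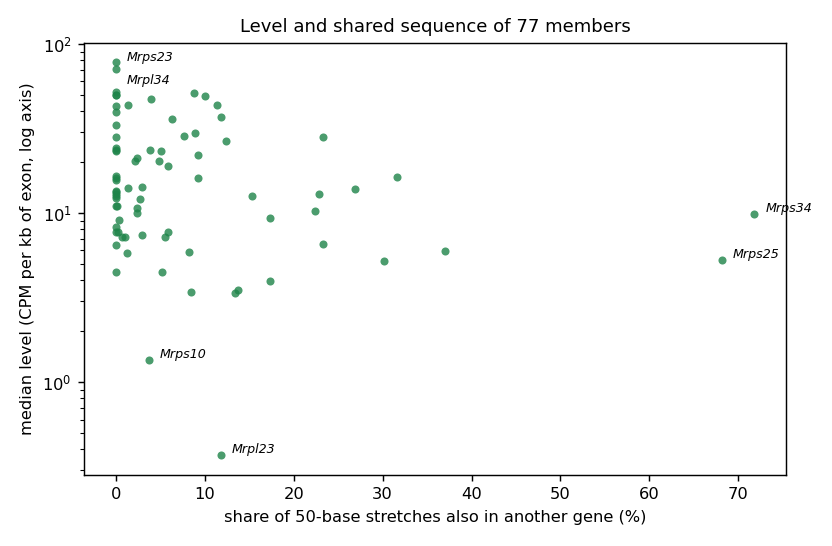
Median level of the 77 tested members (y axis, CPM per kb of exon, log scale) against the share of their 50-base stretches that also occur in another gene (x axis, percent), 1 point per gene. *Mrps23* and *Mrpl34* sit at the top at 77.7 and 70.6 CPM per kb with little shared sequence, *Mrpl23* lies lowest at 0.370, and *Mrps34* and *Mrps25* share 71.8 and 68.2%.

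Summed over the members, the level was 3126, 3305, 2163, 3395 and 3276 CPM in libraries 1 to 5 and 3369, 3103, 3623 and 3545 CPM in libraries 6 to 9. Library 3 was the lowest of the 9, and the other 8 lay within a narrow band in which the labels overlapped. The 2 subunits moved together, with a ratio of large to small subunit CPM of 2.45, 2.54, 2.57, 2.52 and 2.59 in libraries 1 to 5 and 2.53, 2.54, 2.52 and 2.46 in libraries 6 to 9. Library 3 was inside this range although both of its sums were the lowest, at 1556 CPM for the large and 606 CPM for the small subunit. Over the 8 libraries without library 3, the coefficient of variation of a member had a median of 8.35% (range 3.49 to 14.9%), beside 10.3% over the 11570 tested genes within the members' range of mean levels and 12.4% for the genes of cytosolic ribosomal proteins.

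Library 3 held lower levels of most members. Their median log2 difference from the median of the other 8 libraries was -0.61, beside -0.02 for all tested genes, and 63 of the 77 members were below every other library, which is 81.8% against 37.4% of all tested genes. The genes of cytosolic ribosomal proteins lay the other way in this library, with a median of 0.58. *Mrps35* was at -1.71, *Mrps36* at -1.57, *Mrps9* at -1.40 and *Mrpl42* at -1.38. Above every other library were 5 members, *Mrpl17*, *Mrpl20*, *Mrpl33*, *Mrpl52* and *Mrps18b*, which is 6.49% against 37.7% of all tested genes. *Mrpl20*, an assembly protein of the large subunit in bacteria, read 47.8 CPM in library 3 and 31.5 to 40.6 CPM in the others. These levels rest on a TMM factor of 1.304 for library 3, beside 0.932 to 1.01 in the others, which lowers each CPM in library 3. As a share of raw counts the members took 0.282% in library 3 and 0.304 to 0.344% in the others. The size of their difference thus depends on the scaling. The lower myocyte and endothelial markers and the higher leukocyte and fibroblast sums given above were measured in this same library, and their part in its member levels was not tested.

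**Figure D2:**
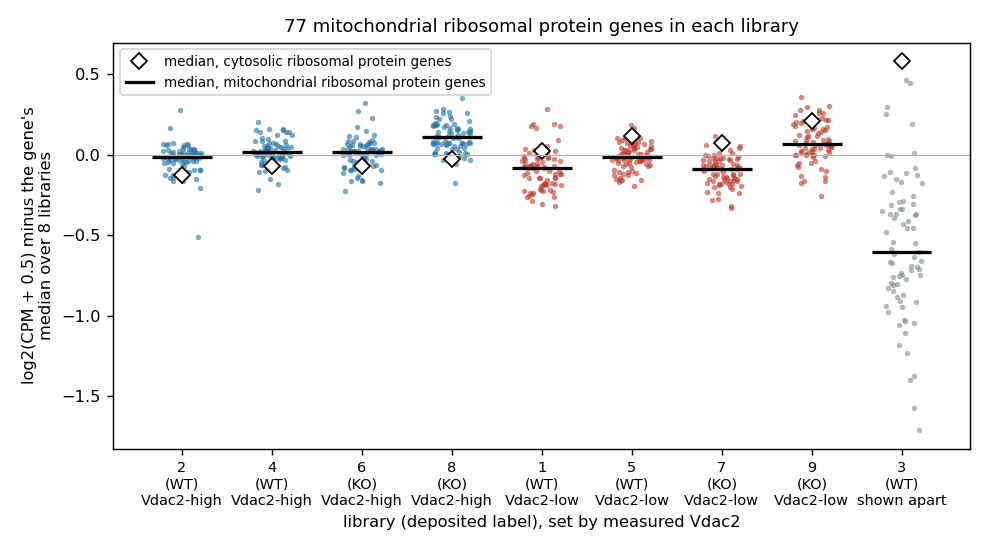
Log2(CPM + 0.5) of each of the 77 tested members minus that gene's median over the 8 libraries other than library 3 (y axis), by library (x axis, with the deposited label and the set by measured *Vdac2*). Points are genes, bars the median of the members and diamonds the median of the cytosolic ribosomal protein genes. Member medians lie between -0.09 and 0.11 in the 8 libraries and at -0.61 in library 3, where the cytosolic ribosomal proteins are at 0.58.

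The first comparison asked whether members differed between the labels. In edgeR's quasi-likelihood test of KO against WT over all 16322 tested genes, 0 of 77 members had a Benjamini-Hochberg adjusted p under 0.05, where 9 genes or 0.0551% of all tested passed. At an unadjusted p under 0.05, 0 members passed beside 6.11% of all tested genes, and DESeq2 also called 0. The lowest adjusted p of a member was 0.68. Nothing in the labels says more of the replicates than that they are separate samples, so these p-values measure the spread between the samples, which may be partly technical.

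The members' log2 fold changes had a median of 0.16, beside -0.02 for all tested genes, with 68 positive and 9 negative and a range of -0.17 to 0.53. Library 3 is labelled WT and decides the size of this median, which was 0.05 without it, beside 0.00 over all genes, with 57 positive and 20 negative and a range of -0.11 to 0.31. The library medians of the members had an SD of 0.196 within the labels. By role, the medians were 0.16 for the large and 0.13 for the small subunit, and 0.14 for proteins with a bacterial counterpart and 0.16 for those without. Without library 3 these medians were 0.06, 0.05, 0.03 and 0.06 in the same order.

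The 3 members with the lowest unadjusted p were *Mrpl40*, *Mrps15* and *Mrps27*. *Mrpl40*, a mitochondria-specific protein of the large subunit, gave 24.2, 21.9, 24.6, 25 and 22.1 CPM for libraries 1 to 5, and for libraries 6 to 9 it gave 25.2, 23.5, 29.5 and 29.9 CPM. Libraries 8 and 9 were the highest, and the labels overlapped through library 7. The means were 23.6 ± 1.42 (SD, n = 5) and 27.0 ± 3.16 CPM (SD, n = 4), and the log2 fold change of 0.20 (SE 0.097) had an adjusted p of 0.68 by edgeR. *Mrps15* (uS15m), an rRNA-binding protein of the small subunit, read 36.2, 36.2, 23.7, 40.9 and 35.9 CPM in libraries 1 to 5 and 41.8, 39.1, 44.9 and 43.4 CPM in libraries 6 to 9, with library 4 inside the range of the libraries labelled KO. Its log2 fold change was 0.29 (SE 0.14, adjusted p = 0.68 by edgeR). *Mrps27*, a pentatricopeptide repeat protein, stood at 30.9, 24.5, 17.9, 26.3 and 24.4 CPM against 34.6, 26.4, 28.7 and 31.7 CPM, which overlap. Its log2 fold change of 0.29 (SE 0.15) had an adjusted p of 0.68 by edgeR. Without library 3 the log2 fold changes of *Mrpl40*, *Mrps15* and *Mrps27* were 0.21, 0.18 and 0.19.

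Members with further known roles gave values of the same kind. *Mrpl12*, a stalk protein that also binds the mitochondrial RNA polymerase, gave 44.2, 43.6, 34.5, 41.0 and 49.7 CPM for libraries 1 to 5, and for libraries 6 to 9 it gave 56.4, 47.6, 45.7 and 48.0 CPM. The log2 fold change was 0.21 (SE 0.11, adjusted p = 0.68 by edgeR), with the ranges overlapping. *Mrps36* had the largest log2 fold change of the members, 0.53 (SE 0.32, adjusted p = 0.68 by edgeR), with 4.79, 3.47, 1.40, 4.38 and 5.03 CPM against 5.52, 5.64, 5.30 and 5.56 CPM. All 4 libraries labelled KO were above all 5 labelled WT, narrowly, with 5.30 and 5.03 CPM the nearest values, and library 3 was the farthest below. How many of all tested genes separate the labels in this way was not counted. Without library 3 the log2 fold changes of *Mrpl12* and *Mrps36* were 0.14 and 0.31. *Mrpl58*, a peptidyl-tRNA hydrolase that rescues stalled ribosomes, was at 22.6 to 38.4 CPM in the libraries labelled WT and 35.5 to 41.3 CPM in those labelled KO. Library 3 was the lowest of them, and the log2 fold change of 0.20 (SE 0.15) was 0.08 without it. *Mrpl10* and *Mrpl11*, of the stalk and its base, had log2 fold changes of 0.11 (SE 0.076) and 0.16 (SE 0.12). *Mrps12*, of the decoding centre, was at 0.08 (SE 0.12) on this log2 scale, and *Mrps22*, whose defects cause cardiomyopathy in humans, at 0.16 (SE 0.10). Without library 3 the log2 fold changes of *Mrpl10*, *Mrpl11*, *Mrps12* and *Mrps22* were 0.08, 0.07, 0.02 and 0.13.

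Between the Vdac2-low and Vdac2-high libraries the members differed little and mostly one way. The median log2 difference, low minus high, was -0.07 over the 77 members and 0.00 over all tested genes, with 58 negative and 19 positive and a range of -0.30 to 0.21. In every Vdac2-low library 11 members (14.3%) were below every Vdac2-high library, beside 4.93% of all tested genes, and 0 were above, beside 7.16%. The SD of the library medians within the sets was 0.0644, and the members' median difference ranged from -0.10 to -0.04 with each library left out in turn. With library sizes scaled by total counts alone, the median was -0.01 where that of all genes was 0.05, and 5 members (6.49%, beside 2.65% of all genes) did not overlap in the lower and 4 (5.19%, beside 11.3%) in the higher direction. Without library 9 the count of lower members was 21 (27.3%, beside 8.30% of all genes). The median of the members in library 9 was 0.07 above their level at the median of the 8 libraries, and in the other Vdac2-low libraries it was -0.01 or lower.

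By subunit, 8 of 50 large subunit members (16.0%) and 3 of 26 small subunit members (11.5%) were lower without overlap, beside 4.93% of all tested genes. Of the members with a bacterial counterpart 5 of 46 (10.9%) were lower without overlap, and of the mitochondria-specific ones 6 of 30 (20%). The sets are balanced over the labels, which also separates the lanes. Within labelled WT (libraries 1 and 5 against 2 and 4) the median of the members was -0.06, and within labelled KO (libraries 7 and 9 against 6 and 8) it was -0.08. The difference was negative within both labels for 47 members (61.0%, beside 35.2% of all tested genes) and positive within both for 17 (22.1%, beside 35.6%).

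**Figure D3:**
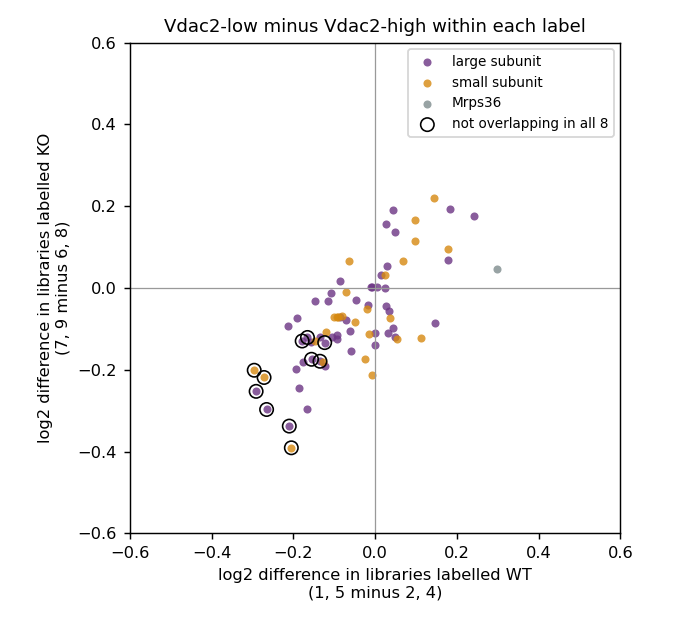
Log2 difference, Vdac2-low minus Vdac2-high, of each of the 77 tested members within the libraries labelled WT (x axis) and within those labelled KO (y axis), with no library shared between the axes. Points are genes by subunit, and the 11 ringed members do not overlap over all 8 libraries. In the lower left quadrant lie 47 members (61.0%, beside 35.2% of all tested genes), and 17 (22.1%, beside 35.6%) lie in the upper right.

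Among large subunit proteins with a bacterial counterpart, *Mrpl28*, *Mrpl1* and *Mrpl3* were lower without overlap. *Mrpl28* (bL28m, ENSMUSG00000024181, chr17:26123500-26126613, plus strand) was at 63.4, 69.0, 65.2 and 66.0 CPM in the Vdac2-low libraries 1, 5, 7 and 9 and at 81.3, 80.8, 75.8 and 80.9 CPM in the Vdac2-high libraries 2, 4, 6 and 8. All 4 low libraries were thus below 70 CPM and all high ones above 75 CPM, a log2 difference of -0.27, and library 3 was at 33.3 CPM. *Mrpl1* (uL1m), of the mobile stalk where deacylated tRNA leaves, was at 43.2, 47.1, 42.5 and 47.3 CPM against 48.0, 52.7, 50 and 51.3 CPM. Its log2 difference was -0.16, with library 2 close above library 9. *Mrpl3* (uL3m, ENSMUSG00000032563, chr9:105053239-105079888, plus strand), which reaches towards the peptidyl transferase centre, was at 95.4, 93.5, 84.4 and 92.6 CPM against 101, 107, 96.6 and 104 CPM. Its log2 difference was -0.16, library 6 being the lowest of the high libraries and library 3 reading 46.2 CPM.

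The mitochondria-specific large subunit proteins gave 5 of the 11 members. *Mrpl37* (ENSMUSG00000028622, chr4:107055874-107066868, minus strand) was at 32.6, 35.5, 33.4 and 36.8 CPM in the Vdac2-low and at 40.1, 41.9, 45.0 and 41.5 CPM in the Vdac2-high libraries. This clear gap gave a log2 difference of -0.28, -0.27 within labelled WT and -0.30 within labelled KO. *Mrps18a* (mL66, ENSMUSG00000023967, chr17:46110986-46128910, plus strand) was at 38.8, 45.1, 37.4 and 41.5 CPM against 48.6, 48.3, 48.7 and 51.2 CPM. The high libraries were close together and the low ones more spread, with a log2 difference of -0.27. *Mrpl44* (ENSMUSG00000026248, chr1:79776018-79781445, plus strand), a protein with an RNase III fold, was at 31.7, 30.5, 32.0 and 33.4 CPM against 35.1, 35.5, 33.4 and 38.3 CPM. Libraries 9 and 6 came within rounding of each other, so that its log2 difference of -0.15 separates the sets by the smallest gap of the 11.

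*Mrpl38* was at 30.0, 31.4, 31.7 and 33.8 CPM against 34.6, 34.4, 35.5 and 35.8 CPM, a log2 difference of -0.14. *Mrpl50* was at 56.6, 55.3, 53.4 and 59.2 CPM against 59.6, 62.3, 59.3 and 64.2 CPM, a log2 difference of -0.13. In both genes library 9 was the highest Vdac2-low library. *Mrpl45*, which anchors the ribosome to the inner membrane, did not separate the sets although its log2 difference was larger, -0.23. It was at 52.6, 61.2, 53.0 and 63.2 CPM against 61.4, 66.0, 69.2 and 73.3 CPM, library 9 lying above library 2.

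Of the small subunit, *Mrps28*, *Mrps35* and *Mrps9* were lower without overlap. *Mrps28* (bS1m, ENSMUSG00000040269, chr3:8802146-8923918, minus strand) had the lowest log2 difference of all members, -0.30, with 27.3, 30.8, 26.3 and 29.4 CPM against 31.4, 35.8, 33.8 and 39.8 CPM. Library 5 came close to library 2, and the difference was -0.20 within labelled WT and -0.39 within labelled KO. *Mrps35* (mS35) was at 63.0, 68.7, 69.7 and 78.7 CPM against 79.0, 82.9, 80.5 and 90.2 CPM, a log2 difference of -0.25. Library 9 nearly met library 2 here. *Mrps9* (uS9m, ENSMUSG00000060679, chr1:42851233-42905683, plus strand), whose tail in bacteria touches the tRNA in the P site, was at 64.4, 69.9, 70.9 and 74.1 CPM against 78.2, 84.0, 79.1 and 90.2 CPM. Its log2 difference was -0.25, and library 3 was far below both sets at 28.6 CPM.

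**Figure D4:**
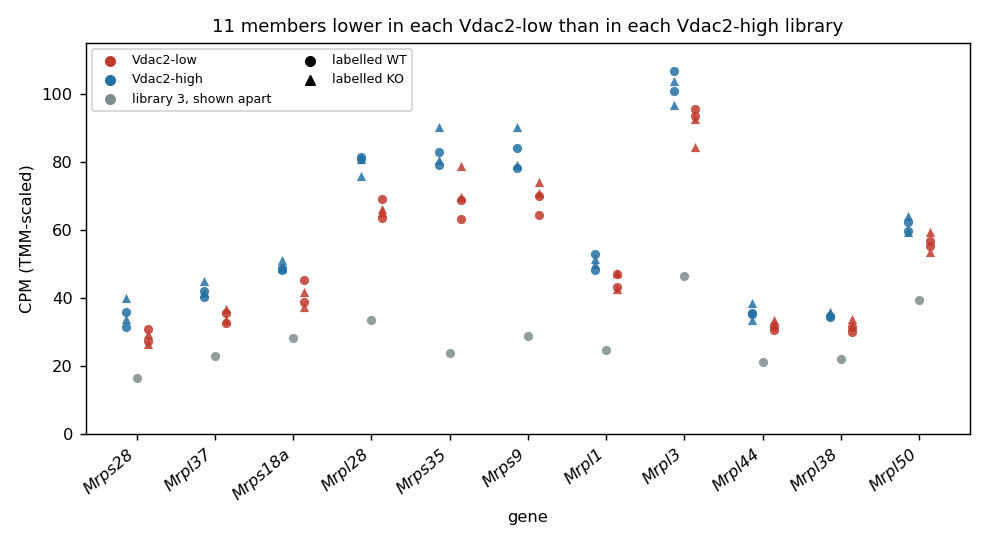
Level (y axis, TMM-scaled CPM) of the 11 members (x axis) that were lower in every Vdac2-low library (red) than in every Vdac2-high library (blue), with circles for libraries labelled WT and triangles for those labelled KO. Library 3 is the grey circle. *Mrpl28* and *Mrpl37* show open gaps, with log2 differences of -0.27 and -0.28, while *Mrpl44* and *Mrpl50* nearly touch. Library 3 is below all 8 others in each of the 11 genes (beside 37.4% of all tested genes).

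The members nearest to separating the sets without doing so were *Mrpl52*, *Mrpl30* and *Mrpl55*. *Mrpl52* lay the other way, at 19.9, 18.6, 17.3 and 20.2 CPM in the Vdac2-low and 16.8, 15.6, 15.7 and 17.4 CPM in the Vdac2-high libraries, and library 8 just passed library 7. Its log2 difference of 0.21 was the highest of the members. *Mrpl30* (uL30m) was at 144, 144, 139 and 166 CPM against 140, 139, 136 and 141 CPM, with a log2 difference of 0.09 that was 0.04 without library 9. *Mrpl55* was at 45.8, 52.4, 44.1 and 54.8 CPM against 53.3, 56.0, 54.0 and 53.8 CPM, where library 9 alone broke the order. Its log2 difference of -0.14 ranged from -0.20 to -0.09 with each library left out. *Mrps23*, the highest member per kb, was at 149, 120, 120 and 157 CPM against 128, 121, 120 and 124 CPM, so that libraries 1 and 9 stood above the rest. Of the other members of the S18 family, *Mrps18b* had a log2 difference of -0.08 and *Mrps18c* one of 0.11, both with overlapping sets. With each library left out in turn they ranged from -0.16 (without library 6) to -0.01 (without library 7) and from 0.03 (without library 9) to 0.18 (without library 7).

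Cell type markers differed between the same sets. The ventricular myocyte markers summed to 52030, 54910, 59120 and 59790 CPM in libraries 1, 5, 7 and 9 and to 61780, 61870, 71700 and 68120 CPM in libraries 2, 4, 6 and 8, lower in each Vdac2-low library, although *Myl3* was the only 1 of the 8 to separate the sets by itself. Fibroblast markers summed to 1279 to 1348 CPM in the low and 881 to 1159 CPM in the high set, with 2 of 6, *Postn* and *Tcf21*, separating the sets. Leukocyte markers summed to 386 to 498 and 212 to 334 CPM, with 4 of 5 separating them, and of the atrial list *Nppa* was at 157 to 1523 and 72.8 to 104 CPM and *Myl4* at 1.87 to 2.42 and 1.59 to 1.86 CPM, both higher in each Vdac2-low library. Endothelial, smooth muscle and red cell sums overlapped between the sets, and of their genes *Pecam1* alone separated them, lower in each Vdac2-low library. Of all tested genes 4.93% separated the sets by being lower in each Vdac2-low library and 7.16% by being higher. Of the markers, *Sln* stayed under the level of 3 counts in each library. As a percentage of the myocyte marker sum, the summed level of the members was 6.01, 5.97, 5.25 and 5.93% in the low and 5.35, 5.49, 4.70 and 5.32% in the high libraries, so on that scale the sets overlapped through library 7 and the low set was on average the higher. On the same scale library 3 was at 15%, above the other 8 libraries, and its myocyte marker sum of 14390 CPM was below theirs. The part of the cell makeup in the members' differences was not tested.

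The promoters of the members were read from RefSeq (GRCm38.p6), 250 bases before to 50 bases after the annotated start, and 69 of the 78 members had an entry, with 75 promoters among them. Matches to NRF1, ETS (the family of GABP) and YY1 motifs were searched on both strands, since these factors are known for the control of nuclear genes of mitochondrial proteins. The promoters of the 5 non-overlapping members with a match to any of the 3 motifs, of the 8 with an entry, and that of *Mrps23*, the highest member per kb, are shown 5′ to 3′ on the gene's strand, with the matches in capitals. That of *Mrps18a* (chr17:46110754-46111053, plus strand) holds an ETS match that begins at -26 and a YY1 match at 11 from the start. That of *Mrpl3* (chr9:105053018-105053317, plus strand) holds an ETS match at -19, that of *Mrpl37* (chr4:107066817-107067116, minus strand) a YY1 match at 26, that of *Mrps9* (chr1:42850983-42851282, plus strand) an NRF1 match at -4, that of *Mrpl44* (chr1:79775768-79776067, plus strand) an NRF1 match at -35 and that of *Mrps23* (chr11:88204138-88204437, plus strand) an ETS match at 15.
Mrps18a: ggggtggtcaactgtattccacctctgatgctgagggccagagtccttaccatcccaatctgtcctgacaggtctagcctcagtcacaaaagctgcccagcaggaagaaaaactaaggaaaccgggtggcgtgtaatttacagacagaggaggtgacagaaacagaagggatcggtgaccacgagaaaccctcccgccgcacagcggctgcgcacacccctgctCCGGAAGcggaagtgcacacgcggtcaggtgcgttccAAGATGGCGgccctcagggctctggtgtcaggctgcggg
Mrpl3: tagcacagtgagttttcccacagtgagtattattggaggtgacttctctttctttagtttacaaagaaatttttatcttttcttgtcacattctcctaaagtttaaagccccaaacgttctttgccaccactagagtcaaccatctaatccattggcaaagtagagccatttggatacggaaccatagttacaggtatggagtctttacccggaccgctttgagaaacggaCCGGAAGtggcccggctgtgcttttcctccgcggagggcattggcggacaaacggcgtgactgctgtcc
Mrpl37: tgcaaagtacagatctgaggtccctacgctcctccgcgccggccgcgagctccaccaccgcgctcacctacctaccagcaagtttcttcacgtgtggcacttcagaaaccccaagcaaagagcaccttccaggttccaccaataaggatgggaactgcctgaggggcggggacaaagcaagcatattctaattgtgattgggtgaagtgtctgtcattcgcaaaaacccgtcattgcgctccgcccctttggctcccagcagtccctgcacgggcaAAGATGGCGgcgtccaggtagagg
Mrps9: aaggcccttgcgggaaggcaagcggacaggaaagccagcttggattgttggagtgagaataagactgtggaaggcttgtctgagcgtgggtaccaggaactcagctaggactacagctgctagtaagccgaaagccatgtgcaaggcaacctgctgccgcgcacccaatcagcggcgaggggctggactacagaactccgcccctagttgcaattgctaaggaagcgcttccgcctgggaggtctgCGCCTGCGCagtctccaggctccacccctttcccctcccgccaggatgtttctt
Mrpl44: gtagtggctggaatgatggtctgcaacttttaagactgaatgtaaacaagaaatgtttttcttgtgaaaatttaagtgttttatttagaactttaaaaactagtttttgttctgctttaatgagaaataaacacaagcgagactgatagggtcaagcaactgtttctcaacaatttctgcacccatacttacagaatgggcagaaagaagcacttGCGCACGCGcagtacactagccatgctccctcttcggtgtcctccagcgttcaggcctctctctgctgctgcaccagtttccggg
Mrps23: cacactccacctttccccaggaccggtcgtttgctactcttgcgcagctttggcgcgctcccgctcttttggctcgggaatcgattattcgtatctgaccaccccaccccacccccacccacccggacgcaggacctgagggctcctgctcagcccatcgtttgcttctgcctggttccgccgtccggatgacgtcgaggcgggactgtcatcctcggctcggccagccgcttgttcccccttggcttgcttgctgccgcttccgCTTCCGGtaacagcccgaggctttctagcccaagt

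Over all member promoters, the NRF1 motif GCGCANGCG was present in 16 of 75 (21.3%), beside 6.2% of the 32851 RefSeq promoters of the same length. The ETS motif CCGGAAG was present in 26 (34.7%, beside 8.9%), the YY1 motif AAGATGGCG in 8 (10.7%, beside 1.4%) and either NRF1 or ETS in 36 (48.0%, beside 13.9%). In the promoters of cytosolic ribosomal proteins the shares were 12.3% for NRF1, 35.6% for ETS and 6.8% for YY1. The GC box GGGCGG was in 52.0% of member promoters and 35.7% of all, the E-box CACGTG in 9.3 and 7.2% and TATAAA in 6.7 and 13.6%. Promoters of 1 gene with several annotated starts can overlap and are counted separately here, and by gene the E-box was in 5 of 69 members. The amino acid response motif TGATGNAA was in 0 of the 75, beside 4.0% of all. Member promoters had a median GC content of 58.7%, against 52.7% for all, and the motifs differ in GC content themselves. ETS matches began at a median of -17 from the start, NRF1 matches at -49 and YY1 matches at 18.5. Motif matches could overlap one another, and they describe letters, not bound factors.

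Of 10 listed regulators of mitochondrial biogenesis, growth and stress, 0 passed an adjusted p under 0.05 between the labels by edgeR (beside 0.0551% of all tested genes). At an unadjusted p under 0.05 also 0 of them passed (beside 6.11%). The Vdac2 sets were separated by 4 of the 10, 2 lower (beside 4.93% of all tested genes) and 2 higher (beside 7.16%). *Ppargc1a*, the coactivator of mitochondrial biogenesis, was at 134, 130, 137 and 125 CPM in the Vdac2-low and 151, 151, 172 and 137 CPM in the Vdac2-high libraries, with libraries 7 and 8 nearest to each other, a log2 difference of -0.21. *Nrf1* was at 16.6, 16.8, 16.0 and 15.4 CPM against 18.8, 19.1, 17.3 and 17.7 CPM (log2 difference -0.17). *Atf4*, a stress response factor, was higher in the low set, at 91.0, 114, 86.1 and 83.1 CPM against 55.3, 62.8, 73.9 and 73.1 CPM (0.49). *Myc* was at 2.92, 3.45, 2.37 and 1.89 CPM against 0.987, 1.41, 1.09 and 1.09 CPM (0.92), and at 15.2 CPM in library 3. The other 6 overlapped, with log2 differences of -0.25 for *Ppargc1b*, -0.15 for *Gabpb1*, -0.13 for *Gabpa*, -0.12 for *Tfam*, -0.10 for *Esrra* and -0.06 for *Yy1*.

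The other genes of the pathway were taken from lists. The 5 mitoribosome proteins outside the symbol rule (*Dap3*, *Ptcd3*, *Chchd1*, *Aurkaip1* and *Gadd45gip1*) had 0 genes called between the labels (beside 0.0551% of all tested genes) and a median log2 fold change of 0.15. Library 3 was below every other library in all 5 (beside 37.4% of all tested genes), and without it that median was 0.04. Between the Vdac2 sets 0 of the 5 were without overlap (beside 4.93% lower and 7.16% higher of all tested genes), and the median log2 difference was -0.07. Of 40 assembly and translation factors 0 had an adjusted p under 0.05 by edgeR (beside 0.0551% of all tested genes). An unadjusted p under 0.05 was found for 2 (5%, beside 6.11% of all tested genes), *Rpusd4* (log2 fold change 0.30, SE 0.095, adjusted p = 0.68 by edgeR) and *Mettl15* (0.38, SE 0.16, adjusted p = 0.68 by edgeR). The 40 factors had a median log2 fold change of 0.17, and 0.07 without library 3. Library 3 was below every other library in 35 of them (87.5%, beside 37.4% of all tested genes). Without it *Rpusd4* and *Mettl15* were at 0.25 and 0.27. Between the sets 4 of the 40 (10%, beside 4.93% of all tested genes) were lower without overlap and 0 (beside 7.16%) higher, with a median of -0.08. *Tufm*, the elongation factor that brings tRNA to the ribosome, was at 11.8, 10.7, 12.3 and 12.5 CPM against 13.2, 13.1, 14.2 and 15.0 CPM (log2 difference -0.22), *Gfm2*, a recycling factor, at 79.6, 74.8, 82.5 and 81.2 CPM against 88.3, 88.2, 92.3 and 92.6 CPM (-0.18). *Lrpprc*, which stabilises mitochondrial mRNA, and *Taco1*, the translational activator of COX1, had log2 differences of -0.15 each.

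Cytosolic ribosomal proteins lay the other way. Of 80 such genes 76 were tested, and between the labels 0 passed an adjusted p under 0.05 by edgeR (beside 0.0551% of all tested genes). At an unadjusted p under 0.05 also 0 passed (beside 6.11%). Between the sets 29 of the 76 (38.2%, beside 7.16% of all tested genes) were higher in every Vdac2-low library and 1 (1.32%, beside 4.93%) was lower, with a median log2 difference of 0.18, where the 77 members had 0 higher, 11 lower and a median of -0.07. Summed, the cytosolic genes were at 3690, 3978, 3849 and 4366 CPM in the low and 3375, 3473, 3464 and 3562 CPM in the high libraries, and at 5372 CPM in library 3. Library 3 therefore had the highest cytosolic and the lowest mitochondrial ribosomal protein sum of the 9 libraries.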

How the data were processed

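Total RNA from the left ventricle was depleted of ribosomal RNA, and stranded libraries were read as 50-base single-end reads. The authors aligned them to GRCm38 and deposited raw counts per Ensembl gene, with no normalization; the submitters' processing notes name STAR 2.7.2c, featureCounts 1.6.3 and DESeq2. Not given in the sources used here are the annotation release, whether strand was used in counting and how multiply aligned reads were treated. Counts in the single table were matched to 9 samples by library number, 0 columns were left out, and symbols and coordinates came from GENCODE M21 (52489 of 52636 genes matched).

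Counts were scaled by TMM in edgeR 4.0.16 (R 4.3.3), filtered by filterByExpr (16322 genes), and labelled KO was compared with labelled WT by the quasi-likelihood F-test with Benjamini-Hochberg adjustment over all tested genes. Standard errors were taken as |log2 fold change| over the root of F. The fit was tested on simulated data. Log2 differences between the Vdac2 sets are of mean log2(CPM + 0.5). Every pair of libraries differed by more than sampling noise (lowest chi-square per degree of freedom 6.59).

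The members, the lists and the tests were chosen with earlier results of these data known. Members were named if lowest in p between the labels (3), largest in difference among the members that do not overlap (10), nearest to or barely past not overlapping (3 each), highest or lowest per kilobase (3 each), or of a known special role. *Mrpl42*, *Mrpl20*, *Mrps25* and the members above every library in library 3 were named after their values were seen. Alternatives were DESeq2 1.42.0, RLE and upper-quartile factors, total counts, no filter, a minimum of 10 counts in every library, removal of mitochondrially encoded genes, pseudocounts of 0 and 2, library 3 among the Vdac2-low libraries, values within each label and each library left out in turn. The study used 4 mice a group and removed 1 WT sample for poor RNA quality, not named in the sources used here, so all 9 libraries were kept.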

Additional observations from a re-analysis of the deposited data

Results flagged for a closer look

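Within the labelled groups, single libraries stood far from the others in several members, measured as the gap to the nearest library over the range of the group and read against Dixon's 95% limit. Of the 35 members named by the rule, each looked at in both labelled groups (70 groups), 8 values passed this limit, where chance passes about 1 in 20 groups, or 3.5. In library 3, labelled WT, the share was 0.912 for *Mrpl30* (80.6 CPM), 0.790 for *Mrpl11* (31.6 CPM), 0.781 for *Mrpl3* (46.2 CPM), 0.744 for *Mrps30* (24.3 CPM) and 0.782 for the summed level of the members (2163 CPM), each on the low side. Among the libraries labelled KO, library 9 was high in *Mrpl30* (0.843, 166 CPM) and *Mrps23* (0.886, 157 CPM), and library 7 was low in *Mrpl55* (0.910, 44.1 CPM) and *Mrps34* (0.863, 16.8 CPM). *Mrps34* shares most of its sequence with neighbouring genes. These flags rest on TMM-scaled levels, and library 3 had the highest TMM factor, 1.304, which lowers its CPM. As a share of raw counts the members took 0.282% in library 3 and 0.304 to 0.331% in the other libraries labelled WT. Library 3 also had the lowest ventricular myocyte marker sum, 14390 CPM, and the part of that in its values was not tested.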

How the results depend on the processing

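Between the labels 0 members were called in all 15 alternatives, and the median of the members stayed positive in all 15, from 0.05 without library 3 to 0.19, while DESeq2 called 62 genes over the whole table and edgeR without library 3 also 62, against 9, and edgeR called 0 with at least 10 counts in every library, 8 to 11 under the other scalings and filters and 5 to 7 with any other library left out. With each library left out in turn that median ranged from 0.05 to 0.19. The count of members lower in every Vdac2-low library was 11 and became 5 with total counts alone (6.49%, beside 2.65% of all genes), 25 within labelled WT (32.5%, beside 23.3%), 24 within labelled KO (31.2%, beside 17.1%), where fewer libraries have to separate, and 11 to 21 with each library left out, 21 (27.3%, beside 8.30%) being without library 9. The count of members higher was 0 and became 2 with upper-quartile factors (all genes 7.73%), 4 with total counts (11.3%), 1 with at least 10 counts in every library (7.44%), 8 within labelled WT (24.5%), 3 within labelled KO (20.7%) and 0 to 3 with each library left out, 3 without library 7 (9.91%) and 2 without library 8 (9.73%). For changes other than the number of libraries the cause was not tested. The median difference of the members was -0.16 with library 3 counted among the Vdac2-low libraries and otherwise lay between -0.10 and -0.01, on the same side in all 18 alternatives, and of the 18 members recomputed by name 17 kept the sign of their log2 difference in each of them. *Mrpl30* was at -0.082 with library 3 among the Vdac2-low libraries. No paired analysis was possible because the labels give no litter or other pairing between the samples of the labelled groups. Mean levels under 3 counts, as in *Mrpl53*, could not be compared.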
